A study of Homo sapiens with 12 samples.

Results

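Mucins are large glycoproteins whose serine-, threonine- and proline-rich stretches carry dense O-linked sugar chains. The secreted gel-forming mucins (MUC2, MUC5AC and MUC5B among the genes described here) are stored in granules and form the mucus layer of airway and gut, and MUC5AC and MUC5B are the main gel-formers of human airway mucus. The membrane mucins (MUC1, MUC3A, MUC4, MUC13, MUC15, MUC16 and MUC20) sit on the cell surface, where several of them signal through a cytoplasmic tail. In the lung, goblet and gland cells make the gel-formers, and adenocarcinomas often make MUC1 and gel-forming mucins as well.

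The 10 mucin genes were chosen by gene symbol, with earlier results of these same libraries known, and they make up 10 of the 60623 genes in the count table. Their levels and differences are therefore given as a description, and the adjusted p-values beside them, which run over all genes tested, are no independent support for the choice. The study asked what phosphorylation of the aryl hydrocarbon receptor (AHR, a ligand-activated transcription factor) at 1 serine does to gene expression in A549 cells, an established human lung adenocarcinoma line. The 4 stable lines were made by lentiviral infection and hygromycin selection, and they carried the empty pLV-EF1a-IRES-Hygro vector (V), wild-type HA-AHR (WT), HA-AHR S489A, in which that serine is replaced and cannot be phosphorylated (SA), or HA-AHR S489D, a phosphomimetic form (SD). All 4 lines were grown in RPMI medium with serum, and no added AHR ligand is named in the labels. All lines kept the endogenous AHR gene, and the EF1a promoter drove the introduced copy. Each construct is represented by 1 line with 3 libraries labelled as biological replicates, so an effect of the construct and a difference between the lines cannot be told apart. The p-values measure only the spread between these libraries.

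The 12 poly(A)-enriched libraries held between 7844045 and 11765576 expected counts each. Summed over the annotated AHR gene and its second gene entry, AHR reached 69.1 ± 4.51 CPM (counts scaled to a common library size; SD, n = 3) in V cells. WT cells held 469 ± 16.4 CPM, SA cells 393 ± 18.9 CPM and SD cells 296 ± 8.16 CPM. The introduced transcript was thus present in the 3 AHR lines, and at unequal levels. In the annotated AHR gene alone, WT cells held 266 ± 28.3, SA cells 223 ± 5.89 and SD cells 210 ± 9.14 CPM. SD against SA cells differed there by -0.085 on the log2 scale (adjusted p = 0.704 by edgeR). The gap between SA and SD cells thus rests mainly on the second entry. Of the 8 fixed epithelial and A549 markers, KRT8 and KRT18 were the most abundant, while KRT19 reached no more than 0.536 CPM. Leukocyte PTPRC, alveolar NKX2-1 and alveolar SFTPC reached no more than 0.171, 0.206 and 0.381 CPM in any library. Other genes of the same lists were expressed, with alveolar ABCA3 at 66.3 to 79.0 CPM, leukocyte CD68 at 21.7 to 36.7 CPM and fibroblast COL1A1 at 5.34 to 13.1 CPM. In bulk RNA, fewer cells that express a gene and less RNA per cell cannot be told apart.

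The members were chosen by mucin symbol, and mucins are defined by stretches rich in serine, threonine and proline. A high share of these residues was therefore built into the choice and is given as a description. In the longest complete coding transcript of GENCODE v44, the proteins of 9 members held between 30.7% and 58.0% serine, threonine and proline. The median over 19464 human proteins was 18.7% and the 95th percentile was 28.0%. MUC3A ranked 1 of all proteins in this share, MUC4 ranked 9 and MUC5AC ranked 16. The gel-formers MUC5AC (5654 residues) and MUC5B (5762 residues) also held 5.20% and 4.76% cysteine, against a median of 2.05%, and cysteines link the monomers of gel-forming mucins into polymers. Among the membrane members, MUC16 had 14547 residues, while MUC1 had 475 and MUC13 had 512 in the annotated form. MUC2 had no complete coding transcript in that release and was left out of this comparison.

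**Figure D1:**
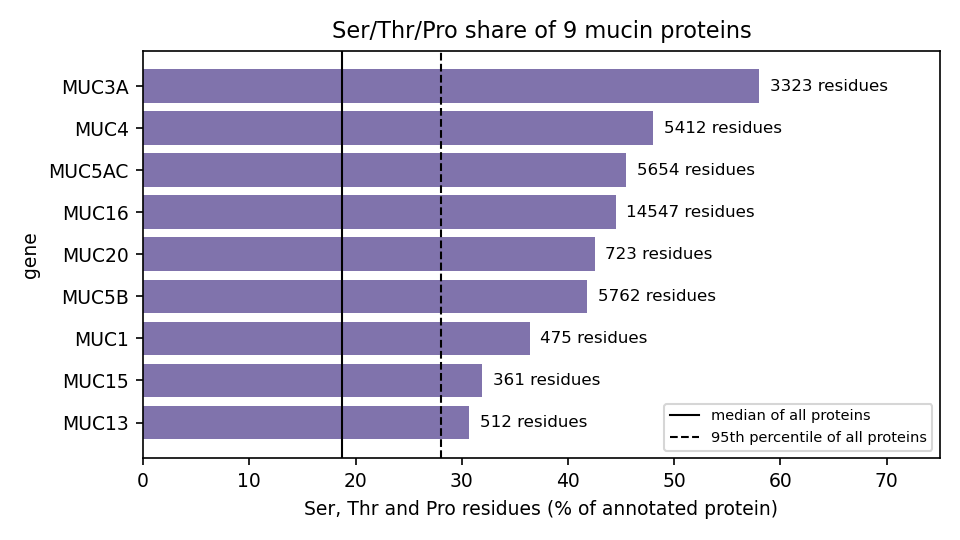
Share of serine, threonine and proline residues (x axis, % of the annotated protein) for 9 mucin proteins, with the protein length printed at each bar. The solid line marks the median of all proteins at 18.7% and the dashed line the 95th percentile at 28.0%. All 9 bars pass the dashed line, from MUC13 at 30.7% to MUC3A at 58.0%.

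Promoter windows were taken from RefSeq (build GRCh38.p14, 250 bases before to 50 after the annotated start) to see whether they held the core letters to which AHR and its partner ARNT bind, GCGTG, read on both strands. This core overlaps with one form of the hypoxia response core. Windows were found for 6 of the 10 members. MUC5AC, MUC5B, MUC15 and MUC20 had no entry. GCGTG was found in the MUC3A and MUC4 windows and in 36.5% of all 35116 promoters, so the letters are common in windows of this length. The windows of MUC1 and MUC4 are shown, the first as the most abundant member with an entry and the second as the only one with the core before its start. Capitals mark GCGTG in MUC4 and TATAAA, searched on the sense strand in the last 50 bases before the start, in MUC1. The MUC1 window comes from chr1:155192916-155193165 and the MUC4 window from chr3:195811930-195812179, both on the minus strand and both printed 5′ to 3′ up to the start.
MUC1: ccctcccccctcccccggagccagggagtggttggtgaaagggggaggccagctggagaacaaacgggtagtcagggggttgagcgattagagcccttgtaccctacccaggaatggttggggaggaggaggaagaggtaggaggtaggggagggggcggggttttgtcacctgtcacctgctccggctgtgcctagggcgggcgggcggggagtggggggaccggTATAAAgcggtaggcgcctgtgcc
MUC4: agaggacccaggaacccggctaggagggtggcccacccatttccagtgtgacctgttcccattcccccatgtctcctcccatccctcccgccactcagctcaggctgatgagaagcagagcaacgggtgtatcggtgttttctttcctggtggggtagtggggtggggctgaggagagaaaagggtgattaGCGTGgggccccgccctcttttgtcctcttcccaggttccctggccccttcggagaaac

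TATAAA lay 24 bases before the MUC1 start of the window shown, and 30 bases before the start of another MUC1 entry. Of all promoters, 2.63% held these letters in the same 50 bases. MUC4 was almost silent in these cells, as described below, so no difference between the lines bears on its core. A match is a description of the letters and not a binding site.

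The mucin transcripts of A549 cells were dominated by 1 gene. MUC5B took 86.0% of all counts assigned to the 10 members, MUC5AC took 9.68%, MUC1 took 2.28% and MUC13 took 1.24%. Because mucin genes differ much in length, levels between genes were compared as CPM per kilobase of merged exon, averaged over the 12 libraries. On that scale MUC5B reached 18.1, MUC1 3.67, MUC5AC 2.18 and MUC13 1.38. The other members lay far below these 4. MUC20 reached 0.0879, MUC3A 0.0823, MUC2 0.0481, MUC16 0.0229 and MUC4 0.00648 CPM per kilobase. MUC15 had 0 counts in every library, where the limit of 3 counts stands for 0.255 to 0.382 CPM. By CPM, MUC5B ranked 374 among all genes, MUC5AC 5615, MUC1 10581 and MUC13 11854. A549 cells thus carried both airway gel-formers, with the cell-surface mucins MUC1 and MUC13 at lower read counts and the intestinal gel-former MUC2 near 0.

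**Figure D2:**
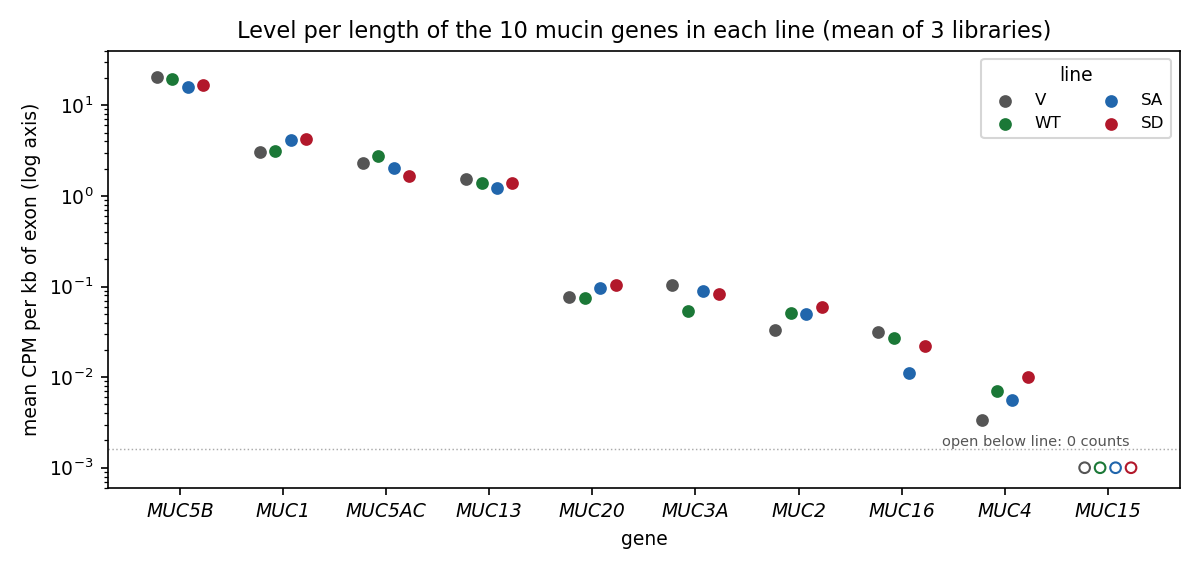
Mean CPM per kilobase of merged exon (y axis, log scale) for the 10 mucin genes in V, WT, SA and SD cells, with 1 point for the mean of 3 libraries. MUC5B lies highest in all 4 lines, MUC1, MUC5AC and MUC13 lie between 1.21 and 4.29, and the open points of MUC15 stand for 0 counts.

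MUC5AC (ENSG00000215182, GRCh38 chromosome 11, bases 1157953 to 1201138, plus strand), the gel-former of surface goblet cells, was called in more comparisons than any other member (3 of 6). It measured 47.1, 36.0 and 38.6 CPM in V cells and 49.0, 44.9 and 49.3 CPM in WT cells. It measured 35.7, 33.4 and 36.0 CPM in SA cells and 33.9, 22.0 and 29.8 CPM in SD cells. The WT libraries lay above every SA and every SD library, the SD libraries lay below every V library, and the V and WT ranges overlapped, as did the SA and SD ranges. The order of the means was WT at 47.8 ± 2.46 (SD, n = 3), V at 40.6 ± 5.82, SA at 35.0 ± 1.44 and SD at 28.6 ± 6.07 CPM.

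A gene was called where its edgeR quasi-likelihood p, adjusted by Benjamini-Hochberg over all genes tested in that comparison, was under 0.05. In SD against WT cells, 1 of the 5 members tested was called, beside 0.708% of all genes tested. That member was MUC5AC, which fell by 0.73 on the log2 scale (SE 0.11, 95% CI -0.96 to -0.51, adjusted p = 0.000765), a fold change of 0.601. The median log2 difference of the 5 members was -0.22, while the median over all genes was within 0.01 of 0. The second gel-former, MUC5B, differed by -0.22 (SE 0.07) with an adjusted p of 0.163. It passed with an adjusted p of 0.0144 under a replicate block, and of 0.0220 without SD replicate 1. Deviations of same-numbered SD and WT libraries from their line means had correlations of only 0.030 to 0.070. Each SD library was still most alike the WT library of its own number, so whether the numbers pair the libraries is unsettled.

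In WT against SA cells, 1 of 4 members tested was called, beside 0.0803% of all genes. MUC5AC was again that member, higher in WT cells by 0.44 on the log2 scale (SE 0.08, 95% CI 0.28 to 0.61, adjusted p = 0.0273). This call was lost on leaving out any 1 WT library, SA replicate 2 or SA replicate 3, although the difference stayed between 0.41 and 0.49. The adjusted p was 0.128 without WT replicate 1, 0.133 without WT replicate 3, 0.109 without SA replicate 2 and 0.0535 without SA replicate 3, and without WT replicate 2 it lay at the threshold. A fit of all 12 libraries together gave an adjusted p of 0.195. In SD against SA cells, 0 of 5 members were called by edgeR, beside 0.220% of all genes, and 1 of them, MUC5AC, had an unadjusted p under 0.05. DESeq2 gave only MUC5B of these 5 an adjusted p (0.964). MUC5AC differed by -0.29 there (95% CI -0.53 to -0.05, adjusted p = 0.479), so a lower level in SD than in SA cells was not shown.

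In SD against V cells, 2 of 5 members were called, beside 5.41% of all genes, and both were gel-formers. MUC5AC fell by 0.50 on the log2 scale (SE 0.12, adjusted p = 0.0102), a fold change of 0.707. Without V replicate 1 its difference was -0.38 with an adjusted p of 0.117, and without SD replicate 2 it was -0.35 with an adjusted p of 0.104. In WT against V cells, 0 of 5 members were called by edgeR, beside 5.24% of all genes, with 1 at an unadjusted p under 0.05. That 1 was MUC5AC at 0.23 (95% CI 0.05 to 0.41, adjusted p = 0.154), which passed with an adjusted p of 0.0348 when V replicate 1 was left out. DESeq2 called 0 members there. In SA against V cells MUC5AC differed by -0.21 (95% CI -0.40 to -0.03, adjusted p = 0.178). The median log2 difference of the members tested was -0.07 for WT cells, -0.28 for SA cells and -0.29 for SD cells against V, and these comparisons share the 3 V libraries.

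**Figure D3:**
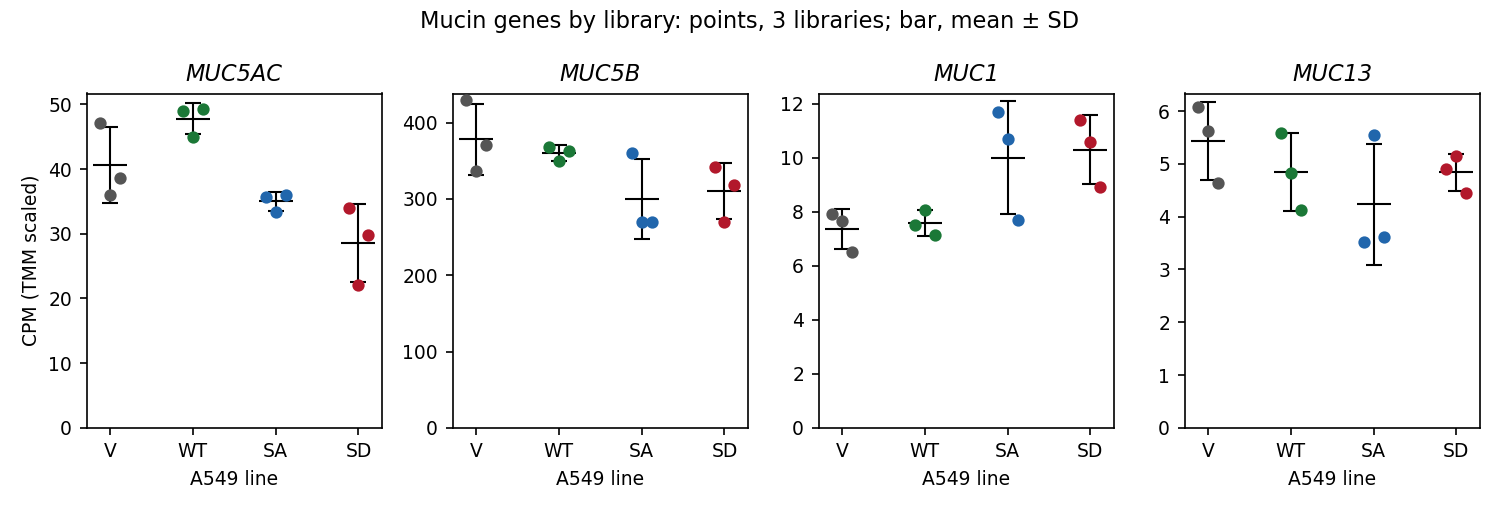
CPM (y axis, from 0) of MUC5AC, MUC5B, MUC1 and MUC13 in the 3 libraries of each line, with bars for the mean and SD. The WT points of MUC5AC, at 44.9 to 49.3, lie above all SA and SD points, and the WT points of MUC1, at 7.13 to 8.07, lie below all SD points.

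MUC5B (ENSG00000117983, GRCh38 chromosome 11, bases 1223066 to 1262172, plus strand), the gel-former of submucosal glands and small airways, lies downstream of MUC5AC on the same strand. It measured 429, 337 and 370 CPM in V cells and 368, 349 and 363 CPM in WT cells. It measured 360, 270 and 270 CPM in SA cells and 342, 270 and 318 CPM in SD cells. Replicate 1 was the highest library of each line, and the V range overlapped with those of SA and SD cells. In SA against V cells, 1 of 6 members tested was called, beside 7.17% of all genes, and this was MUC5B, which fell by 0.34 (SE 0.08, 95% CI -0.51 to -0.17, adjusted p = 0.00888). In SD against V cells it fell by 0.29 (SE 0.08, adjusted p = 0.0229). In WT against V cells it differed by -0.07 (95% CI -0.19 to 0.04, adjusted p = 0.561).

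Both MUC5B calls were lost without single libraries. The call in SA cells was lost without V replicate 1, SA replicate 2 or SA replicate 3, with adjusted p of 0.123, 0.0900 and 0.0959. The call in SD cells was lost without V replicate 1, V replicate 3 or SD replicate 2, with adjusted p of 0.246, 0.0648 and 0.227. DESeq2, which weighs the spread of single genes differently, gave adjusted p of 0.377 in SA and 0.400 in SD cells. Between the AHR lines the MUC5B difference was 0.05 in SD against SA cells (95% CI -0.14 to 0.24) and 0.26 in WT against SA cells (95% CI 0.11 to 0.42, adjusted p = 0.329).

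**Figure D4:**
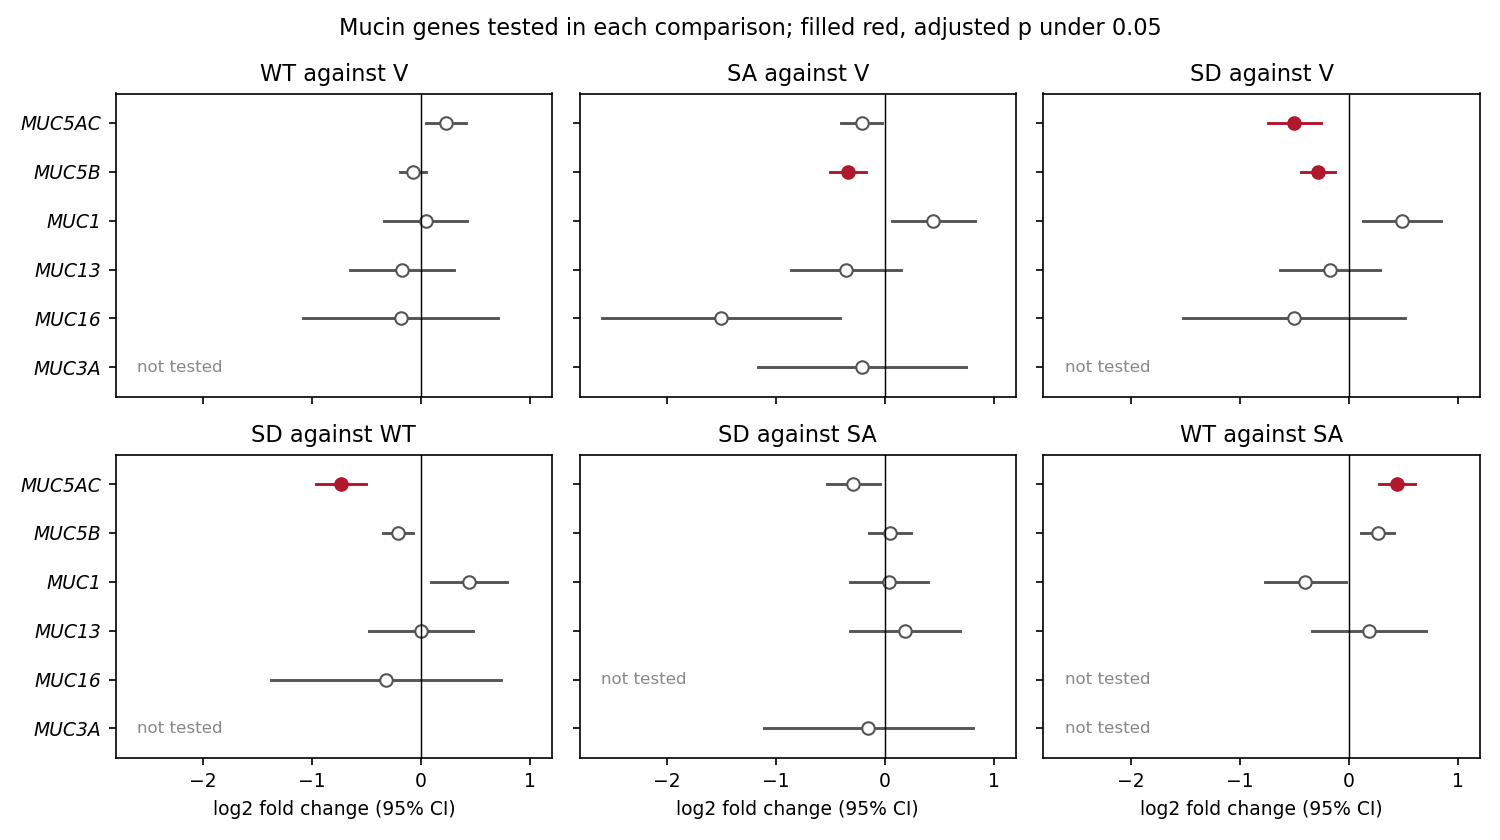
log2 fold change with its 95% confidence interval (x axis) for the 6 members that entered at least 1 test, with 1 panel for each comparison. Filled red points mark an adjusted p under 0.05, which only MUC5AC and MUC5B reached, and MUC16 and MUC3A have the widest intervals.

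The balance between the gel-formers was described by the ratio of MUC5AC to MUC5B counts in a library, a measure added after the levels had been seen. It does not depend on library size, and MUC5AC and MUC5B share only 0.909% and 0.889% of their distinct 31-base sequences. The ratio was 0.104 to 0.110 in V cells, 0.129 to 0.136 in WT cells, 0.0991 to 0.134 in SA cells and 0.0815 to 0.0993 in SD cells. The V, WT and SD ranges did not overlap with each other, while the SA range reached into that of each other line. A two-sided exact permutation test over 3 against 3 libraries gave p = 0.100, the smallest value it allows, for WT against V, SD against V and SD against WT. The same exact test gave p = 0.400 for SA against V, p = 0.200 for SD against SA and p = 0.300 for WT against SA. Over the 12 libraries, log2(CPM + 1) of MUC5AC and MUC5B had a Pearson correlation of 0.714, with both values of a point taken from the same library.

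**Figure D5:**
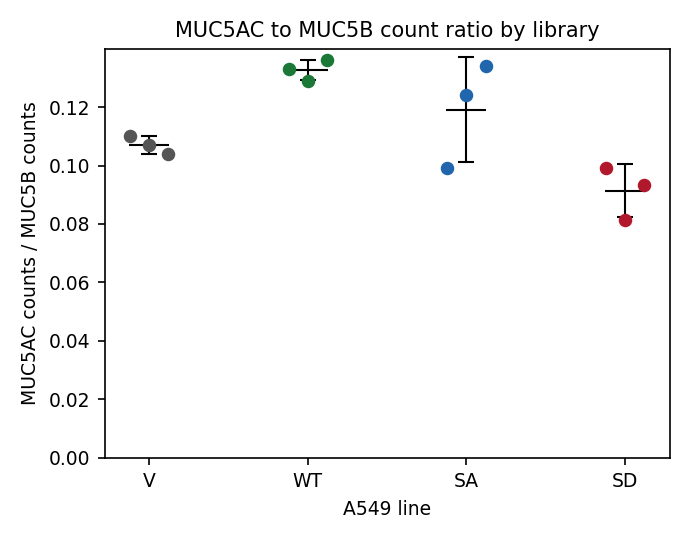
Ratio of MUC5AC to MUC5B counts (y axis, from 0) in each of the 12 libraries, with bars for the mean and SD of 3 libraries. WT points lie highest at 0.129 to 0.136 together with 1 SA library at 0.134, and SD points lie lowest at 0.0815 to 0.0993.

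MUC5AC and MUC5B lie in a mucin cluster with MUC2 and MUC6. Of the genes within 250 kb of the cluster, 12 to 14 were tested in each comparison with the members left out. The single call among them, 1 of 14 in SA against V cells beside 7.17% of all genes, was POLR2L, a shared subunit of the RNA polymerases, which was higher in SA cells by 0.28 on the log2 scale (adjusted p = 0.0165). In the 5 other comparisons 0 of these genes were called by edgeR, with 0 to 2 at an unadjusted p under 0.05. Of all genes, 0.0803% to 5.41% were called in those comparisons, so 12 to 14 genes are too few to set an absence of calls apart. POLR2L differed by 0.22 in WT and 0.21 in SD against V cells, without a call (adjusted p = 0.0870 and 0.155). MUC5B-AS1, an antisense transcript, shares 434 exonic bases with MUC5B and averaged 1.70 CPM, against 337 CPM for MUC5B.

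MUC1 (ENSG00000185499, GRCh38 chromosome 1, bases 155185824 to 155192916, minus strand), a surface mucin whose tail binds signalling proteins, ran the other way. It measured 7.92, 7.64 and 6.52 CPM in V cells and 7.50, 8.07 and 7.13 CPM in WT cells. It measured 11.7, 10.7 and 7.68 CPM in SA cells and 11.4, 10.6 and 8.91 CPM in SD cells. Every SD library lay above every V and WT library, and SA replicate 3 lay within the V and WT ranges. No comparison passed the threshold. The difference was 0.48 in SD against V cells (95% CI 0.13 to 0.84, unadjusted p = 0.00988 by edgeR, adjusted p = 0.112) and 0.44 in SA against V cells (95% CI 0.06 to 0.82, adjusted p = 0.169). It was 0.44 in SD against WT cells (95% CI 0.09 to 0.78, adjusted p = 0.303), and it was 0.04 both in WT against V and in SD against SA cells (95% CI -0.34 to 0.43 and -0.32 to 0.40).

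MUC13, a surface mucin of the gut with epidermal growth factor-like domains, measured 5.44 ± 0.737 CPM in V cells, 4.85 ± 0.736 in WT cells, 4.23 ± 1.15 in SA cells and 4.84 ± 0.352 in SD cells (SD, n = 3). All 4 ranges overlapped, and no comparison passed the threshold. Its largest difference was -0.36 in SA against V cells (95% CI -0.86 to 0.14, adjusted p = 0.455).

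MUC16, the surface mucin that carries the CA125 antigen, had 18, 12 and 10 counts in V cells, 7, 17 and 11 in WT cells, 6, 8 and 2 in SA cells and 17, 3 and 10 in SD cells. Every SA library lay below every V library. The difference in SA against V cells was -1.50 on the log2 scale (SE 0.53, 95% CI -2.59 to -0.41), with an adjusted p of 0.0889, and the counts behind it are few. MUC16 passed the filter on low counts there only through the V libraries, where it was high, so the difference is a description. It was not tested in SD against SA or WT against SA cells. MUC3A, a gut surface mucin, had 8, 9 and 17 counts in V cells, 7, 7 and 3 in WT cells, 8, 12 and 14 in SA cells and 9, 11 and 8 in SD cells. MUC3A passed the filter on low counts only in SA against V and SD against SA cells, with differences of -0.21 and -0.15 and adjusted p of 0.861 and 0.966.

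The 4 remaining members did not pass the filter on low counts in any comparison. Where every gene with at least 1 count was tested, MUC2, MUC4 and MUC20 had log2 differences of -0.32 to 1.50 with SE of 0.66 to 1.63, and their lowest unadjusted p by edgeR was 0.268. MUC2 had 12 counts summed over the 3 V libraries, 17 over WT, 21 over SA and 23 over SD, with exact Poisson intervals, which cover counting error only, of 6.20 to 21.0 in V and 14.6 to 34.5 in SD. MUC4, a surface mucin that partners the receptor ERBB2, had 2 counts in V cells, 4 in WT, 4 in SA and 7 in SD cells, and 6 of the 7 came from replicate 3. MUC20, a surface mucin described as a partner of the receptor MET, had between 2 and 11 expected counts a library. Of its distinct 31-base sequences, 36.0% also occur in other genes, first of all in its pseudogene MUC20P1 and in MUC20-OT1. MUC20-OT1 shares 1851 exonic bases with MUC20 on the same strand and held 4269.92 counts in all, and the MUC20 value was not a whole number in 9 of 12 libraries, so its level is uncertain. Of the 12 other mucin genes on the fixed list, 11 were in the table, 6 had any count, and only MUC12 was tested, with differences between -0.09 and 0.02 and no call.

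Mucins need enzymes that start and extend their sugar chains. Of 20 genes for O-glycan initiation, 13 or 14 were tested in each comparison, and GALNT9, a member of the GalNAc-transferase family known from brain, was the only one called, beside 5.24%, 7.17% and 5.41% of all genes in WT, SA and SD against V cells. GALNT9 was higher in WT, SA and SD than in V cells by 1.12, 1.35 and 1.17 on the log2 scale (adjusted p = 0.0125, 0.000973 and 0.00661), from a mean of 3.08 CPM in V cells. The list median was 0.04, 0.03 and -0.01 in these 3 comparisons. The abundant transferases GALNT2 (338 to 378 CPM) and GALNT10 (261 to 282 CPM in the line means) were not called. Of 16 genes that form and extend the chains, 10 or 11 were tested, and 1, the sulfotransferase CHST2, was higher in SD than in V cells (1.34, SE 0.40, adjusted p = 0.0488), beside the same 5.41% of all genes. CHST2 was near the floor, at 0.907 ± 0.0515 CPM in V and 2.31 ± 0.422 CPM in SD cells (SD, n = 3). It passed the filter on low counts there through the SD libraries, where it was high, so the call is no independent support for a difference. In SA against V cells CHST2 differed by 1.225 without a call (adjusted p = 0.0737), with the same limit. No gene of either list was called between the AHR lines. The shares of all genes called there were 0.708% (SD against WT), 0.220% (SD against SA) and 0.0803% (WT against SA). Lists of this size are too short to set an absence of calls apart from such shares.

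Of 19 genes for mucin folding, packaging and secretion, 12 were tested. Against V, 1 of them was called in WT cells, 1 in SA cells and 2 in SD cells, beside 5.24%, 7.17% and 5.41% of all genes. AGR2, a protein disulfide isomerase of the endoplasmic reticulum that is needed for gel-forming mucin production in the gut, was lower in each AHR line than in V cells. It measured 57.1 ± 3.15 CPM in V cells (SD, n = 3), against 34.0 ± 1.90 in WT, 31.1 ± 7.20 in SA and 34.1 ± 2.82 in SD cells, with log2 differences from V of -0.75, -0.89 and -0.74 (adjusted p = 1.90e-07, 1.35e-06 and 9.11e-07). AGR2 was thus lower in all 3 AHR lines, and its part in the mucin differences was not tested. RAB27A, a small GTPase of secretory granules, was higher in SD than in V cells (0.57, SE 0.14, adjusted p = 0.0148). In WT and SA against V cells it differed by 0.38 and 0.31 without a call (adjusted p = 0.145 and 0.221). No gene of this list was called between the AHR lines. Only 0.0803% to 0.708% of all genes were called there, so the 12 genes tested are too few to set an absence of calls apart.

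Of 16 regulators of mucin transcription, 11 were tested, and 1 was called in SA against V cells (beside 7.17% of all genes) and 1 in SD against WT cells (beside 0.708%). FOXA1, an airway epithelial transcription factor, was lower in SA than in V cells (-0.95, SE 0.23, adjusted p = 0.0109). In WT and SD against V cells it differed by -0.52 and -0.43 without a call (adjusted p = 0.225 and 0.316). HIF1A, the hypoxia-inducible factor subunit, was higher in SD than in WT cells (0.22, SE 0.05, adjusted p = 0.0477). SPDEF, a driver of goblet cell differentiation, measured 5.52 ± 0.951 CPM in V cells and 3.09 ± 0.991 in WT cells, a difference that missed the threshold (-0.87, adjusted p = 0.0607). It measured 3.65 ± 1.07 CPM in SA and 3.55 ± 0.854 in SD cells. These differences from V, -0.605 and -0.643, missed it too (adjusted p = 0.174 and 0.159). No other regulator of the list was called in any comparison. Of 10 partners of the membrane mucins, 9 were tested, and against V 2 were called in WT, 2 in SA and 1 in SD cells, beside the 5.24%, 7.17% and 5.41% of all genes. JUP, which encodes a junctional catenin, was lower in WT, SA and SD than in V cells by log2 differences of -0.72, -0.58 and -0.64 (adjusted p = 1.17e-09, 1.34e-07 and 1.05e-07). MET was higher in WT and SA than in V cells by 0.27 and 0.16 (adjusted p = 0.000184 and 0.0364). In SD against V cells MET differed by 0.16 as well, without a call (adjusted p = 0.0933).

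Some of the cell type markers also differed between the lines, and others did not. The summed level of the 8 epithelial and A549 markers was 8946 to 9274 CPM in V libraries, 7696 to 7794 in WT, 7491 to 7666 in SA and 6927 to 7226 in SD libraries. KRT8, KRT18 and KRT7 made up most of it, with means of 3268, 2733 and 1659 CPM in V cells. Against V, 3 of 7 markers tested were called in WT, 3 in SA and 5 in SD cells, all lower. Of all genes, 5.24%, 7.17% and 5.41% were called there. KRT8, KRT18 and CDH1 were called in each AHR line. KRT7 and AKR1B10 were called only in SD cells, with differences of -0.02 and -0.04 in WT and -0.09 and -0.03 in SA cells. EPCAM lay near the floor, at 0.381 to 1.75 CPM. AKR1C1 went the other way without a call, with log2 differences of 0.01, 0.13 and 0.20 in WT, SA and SD against V cells. Of the 8 goblet and club cell markers, 5 were at 0 in every library, and their sum was nearly all AGR2 and SPDEF. It was 60.8 to 65.5 CPM in V, 36.1 to 38.3 in WT, 29.9 to 44.2 in SA and 35.2 to 41.1 in SD libraries. The epithelial and goblet sums were thus lower than in V in WT cells as well. In WT against V cells 0 of 5 members were called by edgeR, beside 5.24% of all genes. The 9 alveolar type 2 markers had overlapping sums, at 76.3 to 79.7 CPM in V, 71.3 to 78.9 in WT, 70.1 to 83.3 in SA and 72.4 to 83.6 in SD libraries. Of the fibroblast markers, COL1A1 was lower in WT and SA than in V cells (-0.79 and -0.60, adjusted p = 0.00649 and 0.0278). In SD against V cells it differed by -0.50 without a call (adjusted p = 0.0928). Of the leukocyte markers, CD68 was higher in SA than in V cells (0.36, adjusted p = 0.0320). In WT and SD against V cells CD68 differed by 0.19 and 0.28 without a call (adjusted p = 0.355 and 0.114). The part of these markers, and of the unequal AHR levels, in the mucin differences was not tested.

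For the members above 5 CPM, the genes whose log2(CPM + 1) ran most alike over the 12 libraries were named from 11787 genes by Pearson correlation. For MUC5AC these were INTS9 (r = 0.940), RAD17 (0.891) and SRSF1 (0.889). For MUC5B these were FN1 (0.914), USP43 (0.912) and CRNDE (0.898), and for MUC1 they were MT-RNR1 (0.910), MT-ND6 (0.905) and SLC6A6 (0.901). INTS9, RAD17 and SRSF1 had the same order of line means as MUC5AC, with INTS9 at 18.8, 20.4, 18.1 and 16.1 CPM in V, WT, SA and SD cells. The genes like MUC1 were higher in SA and SD than in V and WT cells, with MT-RNR1 at 1063, 1039, 1198 and 1305 CPM. These values describe 12 libraries of 4 lines and rank many genes. The genes were picked by likeness over these same libraries, so a like order of line means was built into the choice.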

How the data were processed

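RNA was sequenced from poly(A)-enriched libraries of the V, WT, SA and SD lines (3 each). Per the labels and methods, the authors trimmed reads with Trimmomatic 0.39 and mapped them with RSEM to GRCh38 transcripts, and they deposited the expected count of each gene. RSEM shares reads that fit several genes by probability, which affects MUC20 most. A further table of the authors' own fold changes and p-values was not used. Expected counts were rounded, and the 6 libraries of a pair of lines were fitted alone, in R 4.3.3 with edgeR 4.0.16 (filterByExpr with a minimum count of 10 and a total of 15, TMM, quasi-likelihood F-test, Benjamini-Hochberg adjustment over all genes tested). CPM used TMM factors over 12 libraries. The script was tested on simulated data. Depth limits low genes, and a count of 0 was read against 3 counts. Alternatives were DESeq2 1.42.0 and its size factors, 2 other filters, 1 fit of all 12 libraries, a replicate block, MUC20 summed with MUC20P1, and each library left out. Coordinates are the deposited ones. Figures were drawn with matplotlib.

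The members and gene lists were chosen with earlier results of these data known. Named were all 10 members, AHR, up to 4 genes per list with an adjusted p under 0.05 in any comparison, defining markers, the 3 most alike genes of each member with a mean of 5 CPM or more, and genes that overlap members. GALNT2 and GALNT10 were named for their levels, and SPDEF, POLR2L, CD68, ABCA3, KRT19, AKR1B10 and AKR1C1 after their values were seen. The MUC5AC to MUC5B ratio, the shared 31-base sequences and the genes near the cluster were also added after the data had been seen.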

Additional observations from a re-analysis of the deposited data

How the results depend on the processing

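The fall of MUC5AC in SD against WT cells was called under every alternative and without each library in turn, between -0.87 and -0.59 on the log2 scale. The number of members called was 1 in that comparison, and 2 where every gene with at least 1 count was tested or where a replicate block was used, with MUC5B as the second at adjusted p of 0.0183 and 0.0144. Without each library it ranged from 1 to 2. In SA against V cells the number was 1, 0 with DESeq2, and 0 to 1 without each library. In SD against V cells it was 2, 1 with DESeq2, 1 with all 12 libraries in 1 fit (MUC5B adjusted p = 0.0618), and 0 to 2 without each library. In WT against SA cells it was 1, 2 where every gene with at least 1 count was tested, 0 with all 12 libraries in 1 fit, and 0 to 2 without each library. DESeq2 gave MUC5AC no adjusted p there after its own filter on low counts (unadjusted p = 3.09e-05), so its count was left out. In WT against V cells it was 0, and 0 to 1 without each library. In SD against SA cells it was 0 under each alternative, but DESeq2 gave an adjusted p there only for MUC5B. The MUC20 sum with MUC20P1 and the DESeq2 size factors changed no call.

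Directions turned only for values that were not called, which lay between -0.318 and 0.050 before. MUC13 in SD against WT cells was -0.001, 0.002 where at least 10 counts were asked of every library, 0.005 with the replicate block, and -0.103 to 0.104 without each library. Without each library in turn, WT against V ran from -0.150 to 0.024 for MUC5B, -0.385 to 0.071 for MUC16 and -0.039 to 0.097 for MUC1. MUC3A ran from -0.415 to 0.205 in SA against V and from -0.348 to 0.018 in SD against SA cells, MUC16 from -0.955 to 0.069 in SD against WT cells, and in SD against SA cells MUC5B ran from -0.025 to 0.201 and MUC1 from -0.120 to 0.162.

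Over all genes, the number called moved by more than 1.5 times under some settings. Testing every gene with at least 1 count gave 252 in SD against WT (105 otherwise), 153 in SD against SA (33 otherwise) and 103 in WT against SA (12 otherwise). The replicate block gave 245, 165 and 25 in these comparisons and 507 in WT against V (774 otherwise). One fit of 12 libraries gave 5 in WT against SA. DESeq2 gave 704 in SA against V (1069 otherwise) and 499 in SD against V (806 otherwise). Without each library in turn, the number ran from 434 to 720 in WT against V, 621 to 1195 in SA against V, 502 to 856 in SD against V, 45 to 145 in SD against WT, 11 to 56 in SD against SA and 2 to 25 in WT against SA. The deviations of same-numbered libraries had small correlations of -0.060 to 0.102, so a pairing by replicate number was not shown. In SD against WT, SD against SA and WT against SA, each library was most alike the one with its own number, a hint from the data only.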
